A study of Canis lupus familiaris with 51 samples.

Results

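The genes described here encode the proteasome, and they were chosen by name: every probe of the array whose gene name starts with PSMA, PSMB, PSMC, PSMD, PSME, PSMF or PSMG followed by a number. This gave 61 of the 43603 probes, for 41 of the 35619 gene names of the array, of which 14 had more than 1 probe. One of the names, PSMC3IP, is a meiotic recombination factor that only shares the letters, so 40 names belong to the proteasome. RNA of 51 canine cutaneous mast cell tumors (MCTs), 1 tumor per dog and per array, was hybridized to Agilent one-color canine arrays. Of the dogs, 30 were labeled female, 19 male and 2 had no sex given. The breed label was Boxer for 9 tumors, Labrador Retriever for 9, Crossbred for 14 and another breed for 17, with 2 not given, and age was given for 49 dogs and ran from 3 to 14 years. The labels name no treatment and no healthy skin, so every comparison is among tumors. The labels do not hold the differentiated or undifferentiated class of a tumor either. Tumors were therefore matched by case name to a supplementary list of reference tumors, which were graded by histology and mitotic index. This matching gave 4 undifferentiated and 13 differentiated references. A further undifferentiated reference on that list matched no sample name, and the tumor LM0 may be that case by elimination, so it was kept apart. The other 33 tumors were not divided into classes here.

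The proteasome breaks down proteins that carry ubiquitin chains. Its core is a barrel of alpha rings and beta rings, in which the beta subunits PSMB5, PSMB6 and PSMB7 do the cutting, and the regulatory particle, with its ATPase (PSMC) and non-ATPase (PSMD) subunits, caps the barrel and unfolds substrates. Interferon induces replacement subunits, PSMB8 for PSMB5, PSMB9 for PSMB6 and PSMB10 for PSMB7, together with the activator genes PSME1 and PSME2, and the immunoproteasome built with them makes peptides for presentation on MHC class I.

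The files place the PSMB8 and PSMB9 probes within 18.3 kb of each other on chromosome 12, and the PSME1 and PSME2 probes within 4.62 kb on chromosome 8. The genome build of these coordinates is not given in the sources used here, nor is the exon in which a probe lies. Some of the probes behind the contrast between inducible and constitutive subunits are shown 5′ to 3′, without those of PSMB6 and PSME1. Capitals mark the longest run of bases shared by the 2 probes of a gene.
PSMB8, chr12:5423078-5423137, minus strand: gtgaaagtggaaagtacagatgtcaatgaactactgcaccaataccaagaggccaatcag
PSMB9 first probe, chr12:5441275-5441334, plus strand: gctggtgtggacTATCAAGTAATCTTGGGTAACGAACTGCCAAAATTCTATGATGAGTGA
PSMB9 second probe, chr12:5441287-5441346, plus strand: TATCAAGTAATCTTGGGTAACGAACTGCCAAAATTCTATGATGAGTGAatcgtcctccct
PSMB10, chr5:84571037-84571217, plus strand: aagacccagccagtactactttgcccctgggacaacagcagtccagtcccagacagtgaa
PSMB5, chr8:6351805-6351864, minus strand: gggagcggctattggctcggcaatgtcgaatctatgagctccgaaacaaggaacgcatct
PSME2 first probe, chr8:7143044-7143103, minus strand: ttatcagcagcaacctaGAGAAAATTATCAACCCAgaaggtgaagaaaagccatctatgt
PSME2 second probe, chr8:7143027-7143086, minus strand: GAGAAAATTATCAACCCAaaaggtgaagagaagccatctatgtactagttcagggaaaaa
The PSMB9 probes share 48 bases without a difference and are close to 1 measurement, with r = 0.995 over the tumors. The PSME2 probes overlap by 43 bases and differ by G36A and A47G, counted from the 5′ end of the first probe, and their levels correlated at r = 0.959. PSME4, the nuclear activator PA200, had 5 probes whose pairwise r ran from 0.206 to 0.958, so its level depended on the probe. All 41 names are in the RefSeq gene table for the assembly UU_Cfam_GSD_1.0, and 58 probes lay on the chromosome that the table gives for their name. The other 3, all named PSMC1, lay on chromosome 35 in the files and on another chromosome in the table, so the identity of what they measure is uncertain.

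Of the 51 tumors, between 59.4% and 74.8% of the spots per array were well above background. No member spot was saturated or flagged as an outlier. Of 12 listed mast cell markers, 5 had a probe of that name (KIT, FCER1A, MS4A2, CMA1 and SLC18A2), and each of them was well above background on 51 of 51 arrays. Keratinocyte markers varied widely: the mean log2 level of 5 of them, relative to its own mean over the tumors, ran from -7.24 to 6.50. In whole tumor tissue, fewer cells of a type and less RNA per cell cannot be told apart.

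Most proteasome genes differed little from tumor to tumor, and the immunoproteasome subunits PSMB9 and PSMB8 differed most. Levels are log2 intensities after quantile normalization, and the brightest probe stands for a gene. Over the 29918 probes that were well above background on at least 26 arrays the median standard deviation (SD) was 0.47. PSMB9 had an SD of 0.80, with levels from 12.56 in tumor T82 over a median of 15.47 to 16.81 in T107, a range of 4.25 log2 units. PSMB8 had an SD of 0.71, from 9.38 in T114 over 11.36 to 12.53 in T107, a range of 3.15. LM0 was the second lowest for each, at 9.46 for PSMB8 and 13.57 for PSMB9, and T114 was also low in PSMB9, at 13.64. T82, the lowest for PSMB9, had a PSMB8 level of 11.52, above the median. PSMG3, a chaperone that helps assemble the core, followed with an SD of 0.58 and levels from 8.64 to 11.28 around a median of 9.94. PSMC3IP had an SD of 0.47, and PSMD14, the deubiquitinase of the regulatory particle, had an SD of 0.46, with levels from 9.05 over a median of 9.87 to 11.48 in T132. PSMB10 was less variable than the other replacement subunits, with an SD of 0.45 and levels from 11.22 over 12.02 to 12.82.

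At the steady end were PSMB4, a structural beta subunit, with an SD of 0.15 (14.25 to 14.95), PSMA7 of the alpha ring with 0.16 (14.64 to 15.33) and the ATPase PSMC2 with 0.19 (11.40 to 12.30). By role, the median SD was 0.28 over 6 alpha ring genes, 0.30 over 6 beta ring genes, 0.22 over 5 ATPase genes, 0.33 over 9 non-ATPase genes, 0.32 over 7 assembly factors and inhibitors, 0.29 over PSME1 and PSME2, and 0.71 over PSMB8, PSMB9 and PSMB10. The ATPase genes were steadier than most of the array: 3.29% of the measured probes had a lower SD than their median gene, while 80.3% had a lower SD than PSMB9.

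**Figure D1:**
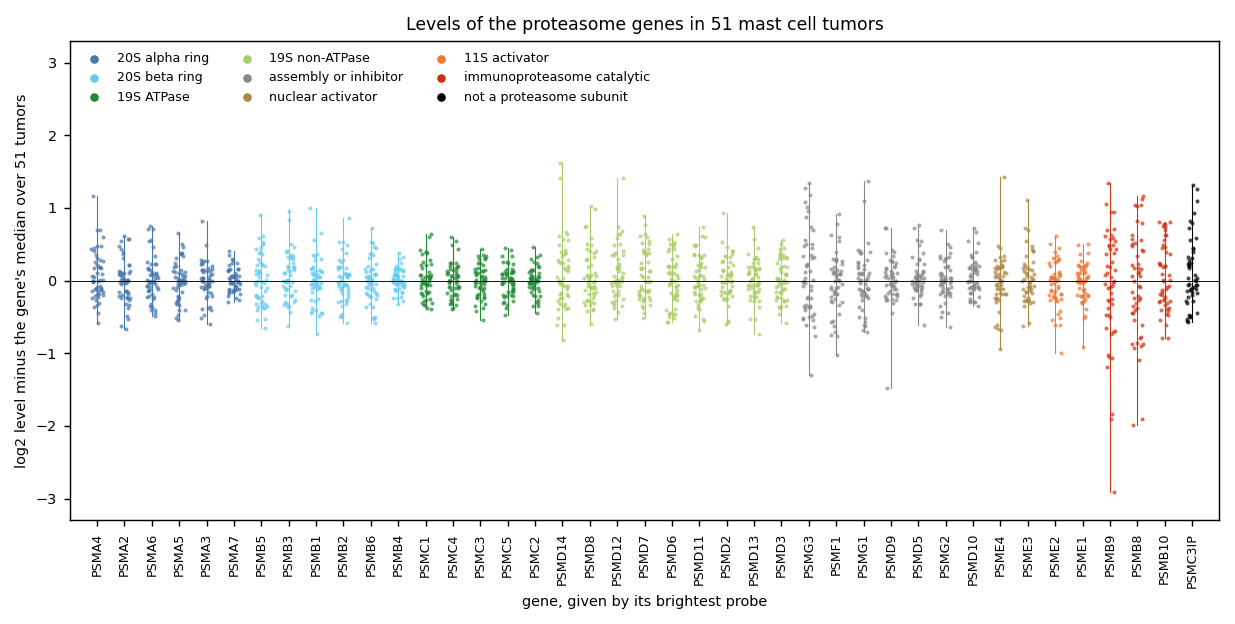
Log2 level of each of the 41 genes minus its median over 51 tumors (vertical axis), with genes grouped by role and ordered by SD (horizontal axis). Each point is a tumor and each line spans the range. PSMB9 and PSMB8 spread most, with a few tumors far below the rest, and PSMB4, PSMA7 and PSMC2 spread least.

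To relate these genes to interferon signaling, an interferon score was computed for each tumor as the mean over 29 interferon-induced genes, none of them a member, of the log2 level minus the gene's mean. It ran from -0.91 to 2.58 with a median of -0.13. Each probe of the array was regressed on the score with limma, and a slope is the log2 change in level per log2 unit of score. All 3 replacement subunits rose with the score, and none of the 26 core and regulatory particle genes was called in either direction. Among those 26 genes, 1 had a slope above 0, and 5 had an unadjusted p under 0.05 by limma. Of the 41 genes, 4 were called at an adjusted p under 0.05, all higher, where 1.34% of all probes were called and 1.06% were called higher. PSMB8 had the largest slope, 0.60 ± 0.12 (SE, n = 51, adjusted p = 0.00118 by limma). PSMB9 had a slope of 0.54 ± 0.14 (limma adjusted p = 0.0339), and its second probe 0.53. PSMB10 had 0.32 ± 0.08 (limma adjusted p = 0.0229). PSME1, a subunit of the interferon-induced activator, had 0.20 ± 0.05 (limma adjusted p = 0.0196), and its other probe also had 0.20 and was called.

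PSME2, the partner of PSME1 in the same ring, had a slope of 0.07 ± 0.06 and was not called (limma adjusted p = 0.671). The constitutive subunits PSMB5 and PSMB6 had slopes of -0.15 ± 0.07 and -0.11 ± 0.06, with limma adjusted p of 0.237 and 0.358. No probe carried the name PSMB7. Over the 41 genes the median slope was -0.07, and 8 had a slope above 0. Just short of the threshold were PSMF1, the proteasome inhibitor PI31, with 0.26 (adjusted p = 0.0521), and PSMD7, a lid subunit, with -0.23 (adjusted p = 0.0516).

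PSMB8 was called under all 14 alternative settings, with slopes from 0.48 to 0.75. PSMB9 was called under 6 of them (slopes from 0.42 to 0.73), PSMB10 under 9 (0.27 to 0.40) and PSME1 under 11 (0.19 to 0.27). With the slide on which an array sat as a fixed block, PSMB8 was the 1 member called, at 0.63. Without T56 and T89, the tumors with the highest scores of 2.58 and 2.08, PSMB8 (0.71), PSMB9 (0.73) and PSMD7 (-0.32) were called and PSMB10 and PSME1 were not. PSMF1 (0.27) and PSMD7 (-0.24) were also called with the share of spots well above background as a covariate. The same 2 genes were called with dim probes left out (0.26 and -0.23). PSMF1 was called as well with the T and NK cell score as a covariate (0.30).

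The score was set beside cell type markers as a description without a test. Over the 51 tumors its r was 0.25 with the mast cell markers, which the tumor cells carry. For markers of other cells r was 0.26 with 6 T and NK cell markers, 0.40 with 6 macrophage markers and 0.21 with 6 fibroblast markers. It was -0.32 with the keratinocyte markers and -0.21 with 3 skeletal muscle markers. None of the genes of these lists was called, where 1.34% of all probes were called. With the scores of all 6 cell types in the model, PSMB8 (0.48, limma adjusted p = 0.0123) and PSME1 (0.22, 0.0163) were still called, while PSMB9 (0.42, 0.319) and PSMB10 (0.27, 0.170) were not, and PSMB6 turned to 0.02. The median slope over the 41 genes was also 0.02 in that model, and 25 of them had a slope above 0.

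The genes that load and carry MHC class I peptides, taken from a fixed list of 18 of which 11 had a probe, moved in part with the same score: 5 were called higher and 0 lower. The peptide transporter subunit TAP2 had a slope of 0.30, the loading factor TAPBP 0.45, the trimming peptidase ERAP1 0.31, and the heavy chains DLA-12 and DLA-64 had 0.44 and 0.28. The light chain B2M had 0.12 and was not called (limma adjusted p = 0.122). Of 18 genes that work alongside the proteasome, such as POMP, VCP and USP14, 0 were called in either direction. With 1.34% of all probes called, 0 of 18 is near the share of the array.

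**Figure D2:**
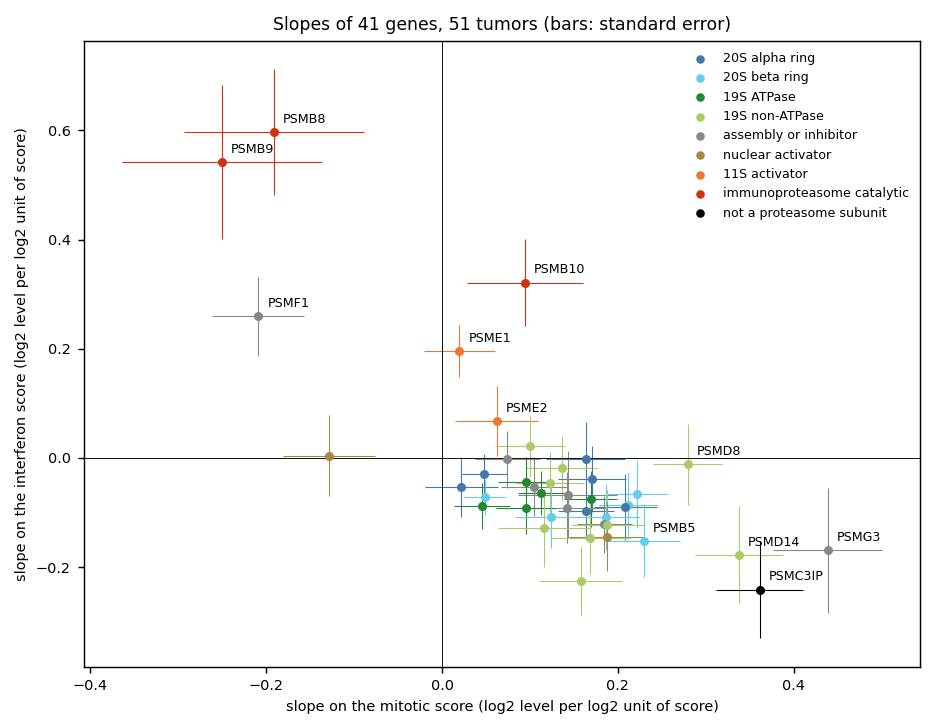
Slope of each gene on the mitotic score (horizontal) and on the interferon score (vertical), both in log2 level per log2 unit of score over 51 tumors, with standard errors as bars and color for role. PSMB8, PSMB9, PSMB10 and PSME1 sit at the top, and most core and regulatory particle genes sit to the right of 0 on the mitotic axis and just below 0 on the interferon axis.

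The mitotic score was made in the same way from 28 genes of mitosis, none of them a member, and ran from -1.64 in T100 to 2.25 in LM0. With this score the constitutive genes moved. Of the 41 genes, 25 were called higher and 1 lower, where 14.2% of all probes were called, 7% higher and 7.16% lower. All 26 core and regulatory particle genes had a slope above 0, and 20 of them were called: 4 of 6 alpha ring, 5 of 6 beta ring, 4 of 5 ATPase and 7 of 9 non-ATPase genes. The slopes were shallow, with a median of 0.16 over these 26 genes. None of the 5 interferon-induced members was called.

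The steepest was PSMG3 with 0.44 ± 0.06 (SE, n = 51, limma adjusted p = 5.94e-07). PSMC3IP, which is not a subunit, had 0.36 ± 0.05 (limma adjusted p = 2.75e-07). PSMD14 had 0.34 ± 0.05 (limma adjusted p = 1.57e-06), and its second probe 0.33. PSMD8, a lid subunit, had 0.28 ± 0.04 (limma adjusted p = 4.20e-07). PSMB5, which PSMB8 replaces, had 0.23 ± 0.04 (limma adjusted p = 5.12e-05), and PSMB6, which PSMB9 replaces, had 0.12 ± 0.04 (limma adjusted p = 0.0308). PSMF1 was the 1 member called lower, at -0.21 ± 0.05 (limma adjusted p = 0.00396). Among the activators, PSME3, the nuclear relative of PSME1, rose with 0.19 ± 0.04 (limma adjusted p = 0.00130). The 5 probes of PSME4 did not share a sign: 2 were called at 0.21, and the brightest had -0.13 and was not called. PSME4 was the 1 of the 14 genes with more probes whose signs disagreed here, against 4 of 14 for the interferon slope.

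The replacement subunits had slopes of -0.19 ± 0.10 for PSMB8 (limma adjusted p = 0.236), -0.25 ± 0.11 for PSMB9 (0.142) and 0.09 ± 0.07 for PSMB10 (0.402). PSME1 had 0.02 and PSME2 0.06. Of the 11 MHC class I genes, 3 were called higher and 4 lower. The higher ones were the folding chaperones CANX (0.26), CALR (0.19) and PDIA3 (0.14), and the lower ones DLA-12 (-0.30), DLA-64 (-0.18), TAP2 (-0.14) and B2M (-0.09). Of the 18 partner genes, 4 were called higher and 1 lower. Those higher were TXNL1 (0.19), a thioredoxin of the regulatory particle, the assembly factor POMP (0.18), the unfoldase VCP (0.15) and the deubiquitinase USP14 (0.14), and the shuttle factor UBQLN2 (-0.11) was lower.

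The mean of the 26 core and regulatory particle genes correlated with the mitotic score at r = 0.70. As a description without a test, its r with markers of other cells was 0.50 for keratinocytes, 0.55 for skeletal muscle, -0.36 for macrophages and -0.38 for fibroblasts. With the mast cell markers, which the tumor cells carry, r was -0.23. The mitotic score itself had r = 0.15 with the keratinocyte and 0.39 with the skeletal muscle markers. With the scores of 6 cell types in the model, 21 of the 41 genes were called, and 19 of these were among the 26 members called without those scores. Of the 26 core and regulatory particle genes, 14 were called with those scores and 20 without them. Over the whole array, 14.1% of the probes were called with those scores and 14.2% without them. PSMB5 (0.15) and PSMD14 (0.28) stayed called, and PSMB6 (0.05, limma adjusted p = 0.385) did not.

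**Figure D3:**
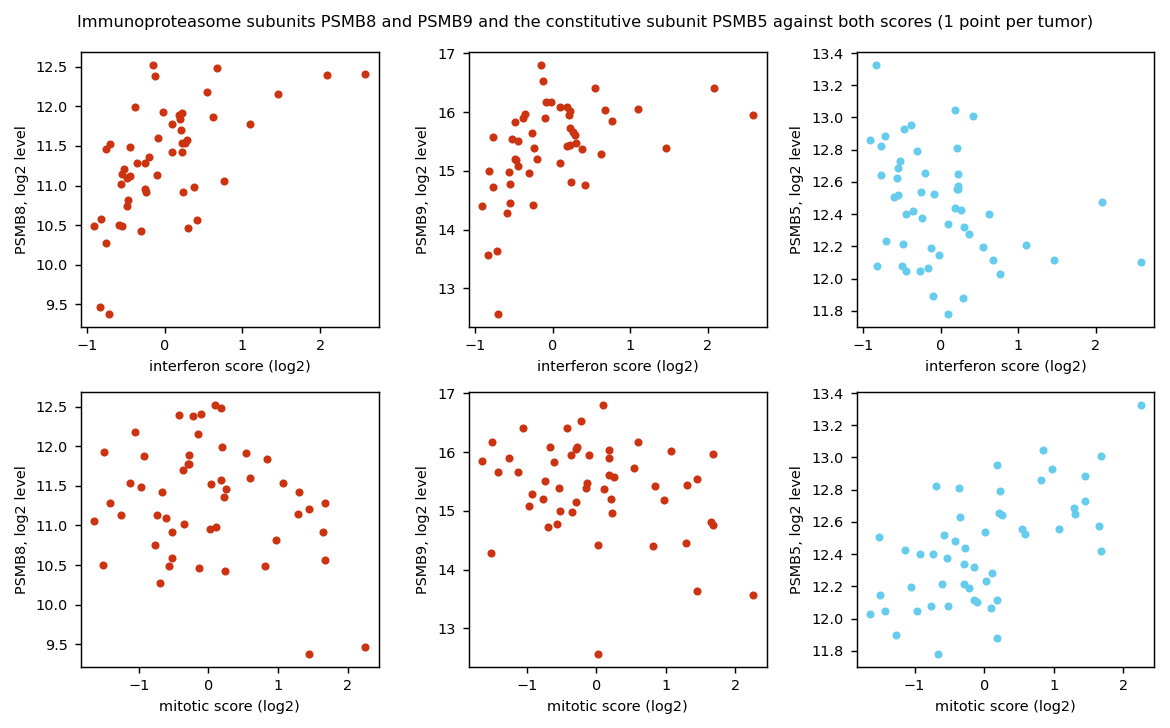
Log2 levels of PSMB8, PSMB9 and PSMB5 (vertical axes) against the interferon score (upper panels) and the mitotic score (lower panels), 1 point per tumor, n = 51. PSMB8 and PSMB9 were higher at higher interferon scores and PSMB5 was higher at higher mitotic scores. The lowest PSMB8 levels, 9.38 and 9.46, belonged to T114 and LM0.

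Whether a replacement subunit and the subunit it replaces changed unequally was tested on the difference of their log2 levels within an array. This difference was added after the values were seen. Its size between 2 probes has no meaning of its own, and only its change across tumors was used. In all, 18 relations were computed and adjusted together, each with a two-sided permutation test of 100000 resamples, which can give no p below 1e-05. PSMB8 minus PSMB5 rose with the interferon score (r = 0.576, permutation p = 3e-05, adjusted 0.00018, rho = 0.590, p = 4e-05). Without T56 and T89 r was 0.547, and within slides it was 0.581 (permutation p = 0.0006). The same difference fell with the mitotic score (r = -0.435, permutation p = 0.00145, adjusted 0.00326, rho = -0.340, p = 0.0151). Without LM0 and T9, the tumors farthest from the median of that score, r was -0.352, and within slides it was -0.490 (permutation p = 0.0103).

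PSMB9 minus PSMB6 gave r = 0.499 with the interferon score (permutation p = 0.00031, adjusted 0.00093, rho = 0.529, p = 9e-05), 0.473 without T56 and T89 and 0.478 within slides. With the mitotic score it gave r = -0.386 (permutation p = 0.00539, adjusted 0.0097, rho = -0.336, p = 0.0161), -0.369 without LM0 and T9 and -0.422 within slides. Taken alone, PSMB8 gave r = 0.589 with the interferon score (permutation p = 1e-05, adjusted 9e-05, rho = 0.573, p = 1e-05), 0.541 without T56 and T89 and 0.602 within slides. PSMB5 gave r = 0.634 with the mitotic score (permutation p = 1e-05, adjusted 9e-05, rho = 0.620, p = 1e-05), 0.606 without LM0 and T9 and 0.695 within slides.

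The core and regulatory particle genes rose and fell together across the tumors. As a description without a test, the median pairwise r was 0.50 over the 66 pairs of core genes, 0.53 over the 91 pairs of regulatory particle genes and 0.50 over the 168 pairs between them, while it was 0.01 over all pairs of 23047 measured genes. PSMB8, PSMB9, PSMB10, PSME1 and PSME2 had a median r of 0.45 over their 10 pairs. Between these 5 genes and the core the median was 0.08, and with the regulatory particle 0.01. The 5 were not alike in this: the median r with the 26 core and regulatory particle genes was -0.23 for PSMB8, -0.26 for PSMB9, 0.07 for PSMB10, 0.14 for PSME1 and 0.36 for PSME2, which had a median of 0.33 with the other 4. The tightest pair among the 5 was PSMB8 with PSMB9, at r = 0.688, followed by PSMB8 with PSMB10 at 0.656. PSMB10 lies on another chromosome than PSMB8. PSME1 and PSME2, neighbors on chromosome 8, correlated at 0.523, while PSMB9 and PSME2 reached 0.058. PSMB8 and PSMB5 correlated at -0.433 and PSMB9 and PSMB6 at -0.252. The points share arrays and normalization.

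**Figure D4:**
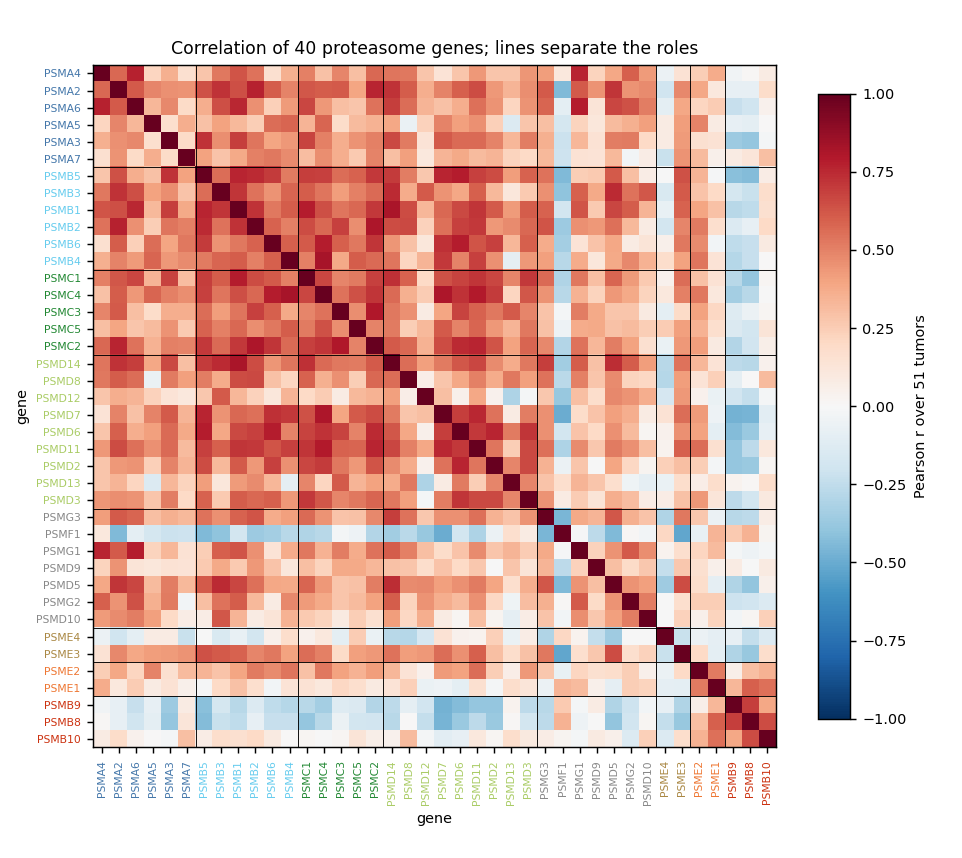
Pearson r over 51 tumors for each pair of 40 proteasome genes, in color from -1 to 1, with lines between roles. The core and regulatory particle genes form a positive block and PSMB8, PSMB9, PSMB10 and PSME1 a smaller one. PSME2 goes with both, and the brightest probe of PSME4, a gene whose probes agreed poorly, stands outside both. PSMF1 stands outside the larger block. With the smaller one its r was 0.35 for PSMB8, 0.34 for PSME1, 0.26 for PSMB9 and 0.03 for PSMB10.

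The reference tumors are described without a test, since the labels do not hold their class. The mitotic score lay between 1.29 and 1.68 in the 4 undifferentiated references and between -1.64 and 0.54 in the 13 differentiated ones, and it was 2.25 in LM0. Mitotic index was a criterion for choosing these references, so this separation was built in. CCNB2, CDC20, FOXM1, NUF2 and PRC1 of the score are also among the transcripts that the paper selected to separate these references. Class differences that follow are therefore not independent of the mitotic slopes. Of the 26 core and regulatory particle genes, 23 had a higher median in the undifferentiated references, with a median difference of 0.25. Over 23192 measured genes, 53.5% had a higher median. For no proteasome gene did the reference groups separate fully, and PSMC3IP was the 1 name for which they did. Over the measured genes, 1.32% had all undifferentiated references above the differentiated ones, so 1 of 41 names was near that share.

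PSMG3 differed most, with a median of 10.54 (10.25 to 11.28) in the undifferentiated references and 9.58 (8.64 to 10.39) in the differentiated ones. PSMD14 had medians of 10.22 and 9.70, and PSMB5 had 12.63 and 12.40.

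PSMB8 and PSMB9 had lower medians in the undifferentiated references, with wide overlap. PSMB9 had 14.79 (14.45 to 15.96) in the undifferentiated and 15.29 (14.28 to 16.08) in the differentiated references. PSMB8 had 11.03 and 11.13, PSMB10 had 12.04 and 11.76, and PSMF1 had 7.38 and 7.93. LM0 had the highest PSMB5 of all tumors, 13.33, beside a PSMB8 of 9.46 and a PSMB9 of 13.57. Counted with the undifferentiated references, it would set the top of their PSMB5 range and the bottom of their PSMB8 and PSMB9 ranges.

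**Figure D5:**
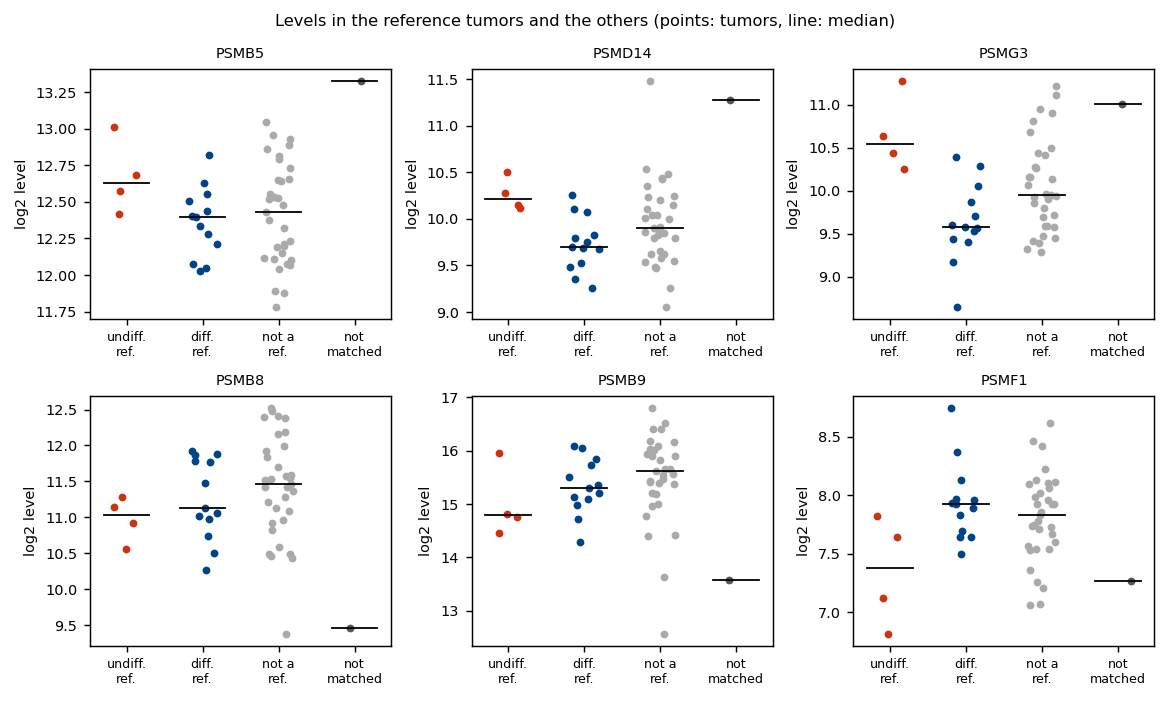
Log2 levels of PSMB5, PSMD14, PSMG3, PSMB8, PSMB9 and PSMF1 (vertical axes) in 4 undifferentiated references, 13 differentiated references, 33 tumors that are not listed references and LM0, which was not matched. Points are tumors and lines are medians. PSMG3 medians were 10.54 in the undifferentiated and 9.58 in the differentiated references, with overlapping ranges.

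No member was called for sex, age or breed. Between males and females limma called 0 of the 41 genes, where 0.0619% of all probes were called (0.0344% higher and 0.0275% lower in males), and 1 gene, PSMA4 of the alpha ring, had an unadjusted p under 0.05 (male minus female 0.19 ± 0.09, n = 49). The estimate was above 0 in 31 of 41 genes, many of which rise and fall together, and in 26 with slide as a fixed block. Its median as reported was 0.06 over the 41 genes and 0.01 over all probes. PSMB9 ranged from 12.56 over a median of 15.44 to 16.08 in 19 males and from 14.28 over 15.45 to 16.81 in 30 females, and PSMB8 had medians of 11.43 and 11.14. Against age limma called 0 members, where 0% of all probes were called, and 0 had an unadjusted p under 0.05. Slopes ran from -0.03 to 0.04 per year. Between Boxer, Labrador Retriever and Crossbred tumors limma's F test called 0 members, where 0.0803% of all probes were called, and 1 gene, the lid subunit PSMD6, had an unadjusted p under 0.05. Median PSMB9 levels were 15.20 in 9 Boxers, 15.83 in 9 Labrador Retrievers and 15.56 in 14 Crossbred dogs, with overlapping ranges.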

How the data were processed

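Aliquots of 51 canine cutaneous MCTs were profiled on one-color Agilent arrays. The authors read the scans with Agilent Feature Extraction software. The processed signal they deposited for each array is a background-subtracted intensity that was not yet scaled between arrays. A second deposited table holds linear intensities after the authors' joint quantile normalization. Here log2 values of the processed signal were quantile-normalized together, after outlier spots had been made missing and controls removed, and replicate spots were averaged per probe (R 4.3.3, limma 3.58.1, statmod 1.5.0). Every test was fitted over 43603 probes with Benjamini-Hochberg adjustment at 0.05. Permutations used numpy 2.4.6 with 100000 resamples. The number of arrays limits the precision, and p-values measure the spread between dogs.

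Members, lists, roles and tests were chosen with earlier results of these data known. Named genes are PSMB8, PSMB9, PSMB10, PSME1, PSME2, PSMB5 and PSMB6, the 5 called members with the largest slope in each direction, the 5 with the highest and the 3 with the lowest SD, each given by its brightest probe. From the MHC class I and partner lists the called genes are named. Others were chosen after their values were seen. Alternatives were scaling to the 75th percentile, normexp with an offset of 50, the authors' table, flagged spots kept, dim probes left out, slide as a random or fixed block, the share of spots well above background, the other score or the T and NK cell score as a covariate, leaving out the 2 most extreme tumors and an adjusted p under 0.01. Spots with a flagged background set to missing and the scores of 6 cell types as covariates were added after seeing the data. Steps were tested on simulated data.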

Additional observations from a re-analysis of the deposited data

Results flagged for a closer look

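Within the Boxer and Labrador Retriever tumors, 24 sets of values (12 named genes in each breed) were checked for a tumor far from the rest, and 3 held one. Chance marks about 1 in 20 such sets, but several of these genes were named for a high SD over these tumors. The sets of a breed also share tumors, so 3 of 24 cannot be set against that rate. Among the 9 Boxers, T114 stood far below the others for PSMB9, at 13.64 against 14.96 for the next lowest, and for PSME1, at 11.74 against 12.46. Among the 9 Labrador Retrievers, T80 stood far above the others for PSMC3IP, at 10.52 against 9.59. T114 also had the lowest PSMB8 level of the 51 tumors, 9.38, and no cause of these values was tested.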

How the results depend on the processing

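The interferon slope was the comparison that depended most on the processing. It called 4 members as reported, 1 with slide as a fixed block, 1 at an adjusted p under 0.01 and 2 with the scores of 6 cell types in the model, and between 3 and 6 under the other alternatives. Over the whole array it called 585 probes as reported, 161 with slide as a fixed block, 216 at an adjusted p under 0.01, 180 with the 6 cell type scores and 1697 with the share of spots well above background as a covariate. The mitotic slope called 19 to 29 members under every alternative, 19 of them at an adjusted p under 0.01, where 3345 probes of the array were called against 6171. Sex, age and breed called 0 members under every alternative, and breed called 4 probes of the array with slide as a fixed block against 35. The sign turned for PSMB6 on the interferon score with the 6 cell type scores (0.0247). In that model the median interferon slope over the 41 genes turned from -0.07 to 0.02, with 25 genes above 0 against 8. The sign also turned for PSME1 on the mitotic score with normexp (-0.000306). Within slides it turned for the median r between regulatory particle and interferon-induced genes (-8.38e-05). All of these turned values were close to 0. PSMB5 with the interferon score gave r = -0.313 (permutation p = 0.0269, adjusted 0.044) and -0.310 within slides, where the adjusted permutation p was 0.075. PSME2 with the mitotic score gave r = 0.188 and, after scaling to the 75th percentile, 0.333 with an adjusted permutation p of 0.0278. The cause was not tested. No paired analysis was possible because each dog gave 1 tumor. Every member probe was well above background on all 51 arrays, except 1 of PSME4, which was so on 49.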

Other observations

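Over 23047 measured genes, those whose levels ran closest to the mean of the 26 core and regulatory particle genes were ranked by r over 51 tumors, a description without a test of genes chosen after their values were seen. The cytosolic chaperonin subunits CCT4 (0.859), CCT5 (0.835) and TCP1 (0.833) and the ubiquitin hydrolase UCHL3 (0.833) were among the 8 closest. The mean of the 18 partner genes had r = 0.784. For PSMB8 the closest genes with a symbol included GBP1, an interferon-induced GTPase, at 0.814 and HLA-DOB, an MHC class II gene, at 0.785. GBP1 is also a gene of the interferon score, so its closeness is not separate from the slope of PSMB8 on that score. The mean of the MHC class I list reached r = 0.749 with PSMB8. For PSMB10 the closest genes with a symbol included GIMAP4, a GTPase of lymphocytes, at 0.668. The T and NK cell markers had r = 0.401 with PSMB10, 0.489 with PSMB8 and 0.340 with PSMB9. With the T and NK cell score in the model, the slope of PSMB8 on the interferon score was 0.50.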
